A study of Mus musculus with 12 samples.

Results

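The Mical family was followed in whole brain of mice with and without Il18, which encodes interleukin-18, a cytokine. Its 5 members are Mical1, Mical2, Mical3, Micall1 and Micall2, and every probe that the array files name for 1 of them was taken. These are 5 of the 36163 gene names on the array and 7 of its 55681 probes, 3 for Mical2 and 1 for each other member. The family was picked because Mical1 had been seen to be low in 12-week wild-type brain alone, so the values of Mical1 are given as a description, with no test. The other 6 probes belong to paralogues that were chosen by name, and these were tested.

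The groups were Il18 knockout mice at 12 weeks, wild-type mice at 12 weeks, knockout mice at 6 weeks and wild-type mice at 6 weeks, with 3 arrays each, labelled as biological replicates. All were BALB/c, none was treated, and total RNA of the whole brain was hybridised on Agilent 1-colour arrays. The allele and how the knockout line was kept are not given in the sources used here. Because whole brain mixes many cell types, fewer cells of a type and less RNA per cell cannot be told apart.

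Mical proteins are flavin-dependent monooxygenases that oxidise particular methionines of actin, which takes filaments apart. In Drosophila, Mical acts below semaphorins and their plexin receptors in axon guidance, and methionine sulfoxide reductases of the MsrB type reverse the oxidation of actin. The Mical-like proteins Micall1 and Micall2 lack the monooxygenase domain and share with the Micals a Rab-binding region by which they act in endosome traffic, so only Mical1, Mical2 and Mical3 are actin oxidases.

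The probes are 60-base sequences placed by the files on genome build mm9. The Mical1 probe A_55_P2130388 lies at chr10:41206772-41206831 on the plus strand, and its bases 31 to 60 are shown because the whole Mical1 result rests on this single probe. The same stretch of the Micall1 probe A_51_P242414, at chr15:78967265-78967324 on the plus strand, stands beside it, since both hold the hexamer AATAAA, the usual polyadenylation signal, which is in capitals. The Mical3 probe A_51_P519648, at chr6:120979679-120979738 on the minus strand, and the Mical2 probe A_55_P2131683, at chr7:119478871-119478930 on the plus strand, hold no such hexamer and are the sequences behind the comparison of Mical1 with the other 2 oxidases.
Mical1 probe, bases 31 to 60: ttcgttgtttacAATAAAaggattatgacc
Micall1 probe, bases 31 to 60: caatgctgcAATAAAcaaacattcttatac
Mical3 probe, bases 1 to 60: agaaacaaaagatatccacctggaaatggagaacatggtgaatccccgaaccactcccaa
Mical2 probe, bases 1 to 60: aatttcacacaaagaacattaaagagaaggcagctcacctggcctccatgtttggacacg
AATAAA was found in 2 of the 7 family probes, against 13.5% of all probes, both strands searched. This is a match of letters only. No family probe shared a run of 20 bases with any other probe of the array on either strand. The remaining Mical2 probes lie at chr7:119491581-119491640 (A_55_P2131672) and chr7:119495771-119495830 (A_65_P20104), and the Micall2 probe A_55_P2004777 lies at chr5:140182784-140182843 on the minus strand. Exon and UTR annotation of the probes was not analysed here.

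A level is the processed signal over its own array's 75th percentile, on the log2 scale, so 0 is that percentile. Between 65.9% and 76.2% of an array's spots were well above background. The highest shares were those of 12-week wild-type replicates 2 and 3, at 76.2% and 74.0%, while replicate 1 of that group had 66.8%. The next highest was 6-week knockout replicate 3, at 69.4%. Il18 averaged -0.24 ± 0.06 in 12-week knockouts and 1.70 ± 0.21 in 12-week wild type (SD, n = 3 each), and -0.21 ± 0.06 in 6-week knockouts and 1.64 ± 0.12 in 6-week wild type, so its levels went with the labels. The neuron, astrocyte, oligodendrocyte and microglia markers were above background on all 12 arrays. The arrays were spread over 2 slides. Slide 2 held the 12-week knockouts and replicate 3 of the 6-week knockouts, and slide 1 held the rest. No slide held both genotypes at 12 weeks, so slide and genotype cannot be told apart there from arrays of 1 slide. Blocking on slide takes its effect from the 6-week knockouts alone, and the calls at 12 weeks then numbered 10 probes higher and 23 lower, against 6032 higher and 5698 lower without it.

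Mical1 is the family member known for binding the scaffold Nedd9 and for holding back the NDR kinases. In 12-week knockout brain its levels were 1.17, 1.07 and 1.03. In 12-week wild type they were -1.43, -1.34 and -1.28. In 6-week knockouts they were 0.97, 0.97 and 1.12, and in 6-week wild type 0.98, 1.02 and 0.91. The 12-week wild-type arrays thus stood apart below the other 9, which lay close together whatever the genotype, age or slide. The probe was well above background on all 12 arrays. Before scaling, its signal was 2053, 2145 and 1892 intensity units in 12-week knockouts and 390, 464 and 467 in 12-week wild type, so the gap was present in the unscaled signal. The 6-week arrays gave 2216, 1951 and 1924 units in knockout and 2330, 2152 and 1914 in wild type.

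**Figure D1:**
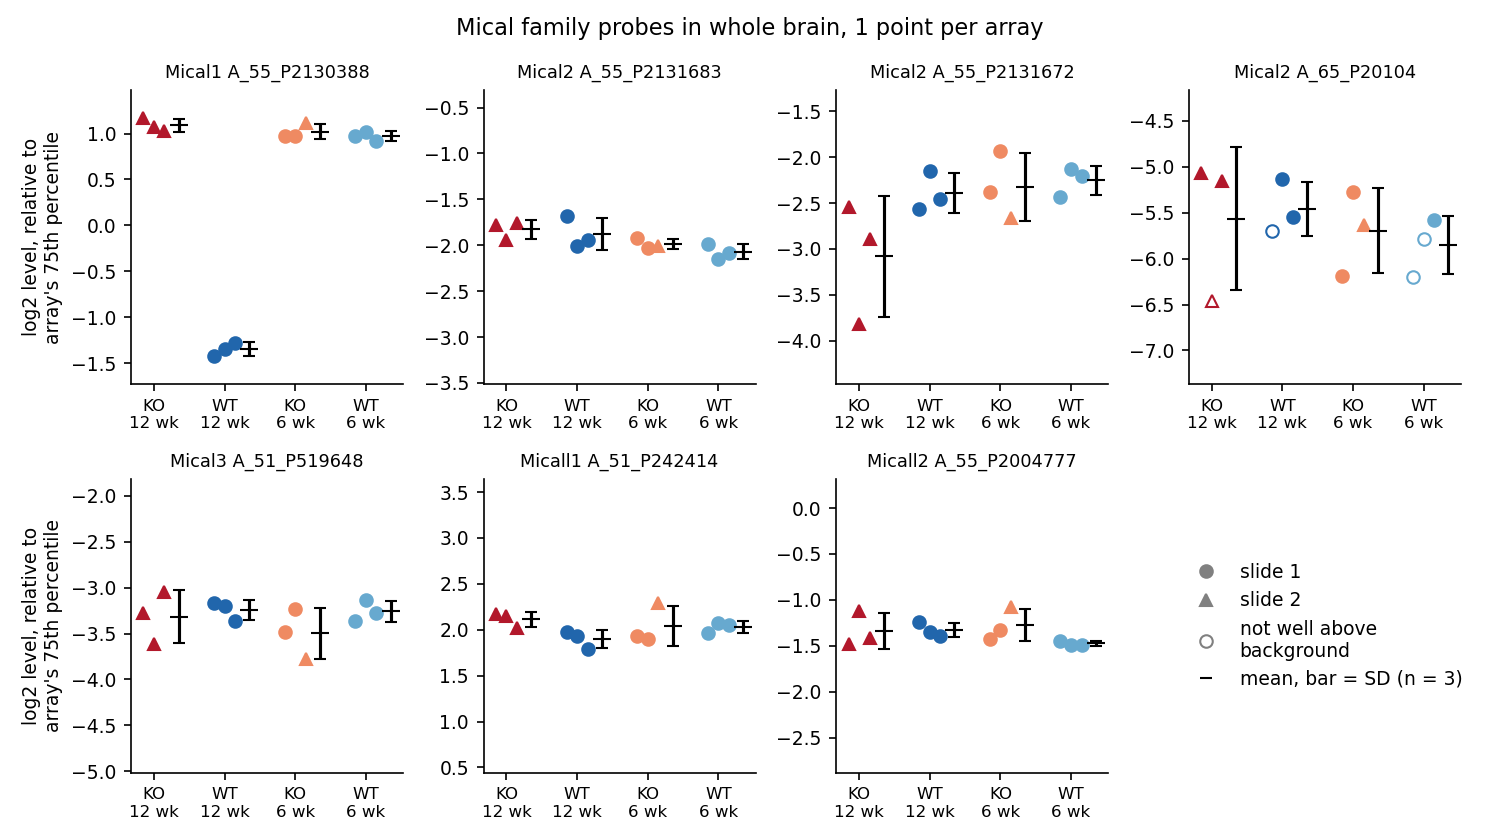
Log2 level of the 7 Mical family probes (vertical axes, each spanning the same range around its own probe) on every array of the 4 groups, with the group mean and SD beside the points (n = 3). Circles are slide 1, triangles slide 2 and open symbols arrays on which the probe was not well above background. Mical1 lies between -1.43 and -1.28 in 12-week wild type and between 0.91 and 1.17 on the other 9 arrays, while the groups overlap or lie close together for the paralogues.

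Ordered by its mean level, Mical1 ran 1.09 ± 0.07 in 12-week knockouts, 1.02 ± 0.08 in 6-week knockouts, 0.97 ± 0.05 in 6-week wild type and -1.35 ± 0.08 in 12-week wild type (SD, n = 3 each). The arrays of the first 3 groups overlapped with those of their neighbour in this order, and the last step was the one wider than the spread. The knockout minus wild-type difference at 12 weeks was 2.44 ± 0.07 on the log2 scale (SE), a 5.42-fold higher level in knockout. It ranked 41 by size among the 37202 probes that passed the filter on dim signal. The 12 minus 6 week difference in wild type was -2.32 ± 0.07, a 4.99-fold lower level at 12 weeks, which ranked 31. These 2 differences share the 12-week wild-type arrays, so they are not separate observations.

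Where neither group was 12-week wild type, Mical1 showed little difference. Knockout minus wild type at 6 weeks was 0.05 ± 0.07, and 12 minus 6 weeks in knockout was 0.07 ± 0.07. The genotype difference at 12 weeks minus that at 6 weeks was 2.39 ± 0.10. With slide as a block, the 12-week genotype difference was 2.30. Slide 1 alone holds the 12-week wild type, at -1.43 to -1.28, and 6-week arrays of both genotypes, at 0.91 to 1.02, so the low level was also present within that slide.

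Among 10 lists of cell type markers, the summed level of 1, the oligodendrocyte markers Mbp, Mog and Mag, was lower on all 12-week wild-type arrays than on all others. In units of the array's 75th percentile it was 48.5 to 54.3 in 12-week knockouts, 36.8 to 37.6 in 12-week wild type, 40.9 to 60.8 in 6-week knockouts and 47.9 to 48.3 in 6-week wild type. At 12 weeks limma called 2 of these 3 markers higher in knockout, against 16.2% of all probes, and 0 of 3 with slide as a block, a setting added for the markers after seeing the data. All 3 were above background on every array, and the part of these cells in the Mical1 values was not tested.

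The first question for the paralogues was whether any of them differed between genotypes at 12 weeks, where Mical1 did. None of the 6 paralogue probes was called at an adjusted p under 0.05 in limma, where 31.5% of all tested probes were, 16.2% higher and 15.3% lower. At an unadjusted p under 0.05 there was 1, the Mical2 probe A_55_P2131672. The arrays of the groups did not overlap for 1 of 6, against 51.9% of all probes. The median difference of the 6 was -0.04, and that of all probes was -0.0030.

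Mical2, whose protein is known to act in the nucleus and to raise Mrtf and Srf target genes, had 3 probes that did not move alike. A_55_P2131683 gave -1.78, -1.95 and -1.76 in 12-week knockouts and -1.68, -2.01 and -1.94 in 12-week wild type. The 2 groups lay over each other, and the difference was 0.05 ± 0.10 (SE; 95% interval -0.16 to 0.26; limma adjusted p = 0.710). The 6-week arrays of this probe read -1.92, -2.03 and -2.01 in knockout and -1.98, -2.14 and -2.09 in wild type.

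The Mical2 probe A_55_P2131672 gave -2.54, -3.81 and -2.89 in 12-week knockouts and -2.56, -2.15 and -2.45 in 12-week wild type. One knockout array, replicate 2, was far below the rest, and replicate 1 lay within the wild-type values. The difference of -0.69 ± 0.29 (95% interval -1.35 to -0.04) did not pass after adjustment (limma adjusted p = 0.0939) and was -0.19 with slide as a block. Without 12-week knockout replicate 1 it was -0.97 and passed (limma adjusted p = 0.0457). Its 6-week levels were -2.39, -1.93 and -2.67 in knockout and -2.43, -2.12 and -2.21 in wild type.

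The last Mical2 probe, A_65_P20104, was dim and passed the filter through 6-week knockouts alone. It was well above background on 2 of 3 arrays in 12-week knockouts, 2 of 3 in 12-week wild type, 3 of 3 in 6-week knockouts and 1 of 3 in 6-week wild type. Its levels were -5.07, -6.47 and -5.16 in 12-week knockouts, -5.70, -5.13 and -5.55 in 12-week wild type, -6.19, -5.27 and -5.63 in 6-week knockouts, and -6.20, -5.78 and -5.58 in 6-week wild type. All 4 groups overlapped, and the 12-week difference of -0.11 ± 0.37 had an interval of -0.92 to 0.71.

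Mical3, which acts with Rab8 in the fusion of exocytic vesicles, had levels of -3.28, -3.62 and -3.05 in 12-week knockouts and -3.16, -3.20 and -3.36 in 12-week wild type. It gave -3.48, -3.23 and -3.78 in 6-week knockouts and -3.36, -3.14 and -3.27 in 6-week wild type. No group lay apart. At 12 weeks the difference was -0.07 ± 0.16 (95% interval -0.43 to 0.29; limma adjusted p = 0.754), and the interval does not reach the size of the Mical1 difference in either direction.

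Micall1, which recruits the membrane-remodelling protein Ehd1 to recycling endosomes, had levels of 2.17, 2.15 and 2.02 in 12-week knockouts and 1.98, 1.93 and 1.79 in 12-week wild type. These groups did not overlap. In 6-week knockouts it gave 1.93, 1.89 and 2.30, with the high value on slide 2, and in 6-week wild type 1.96, 2.08 and 2.05. The 12-week difference of 0.21 ± 0.11 (95% interval -0.03 to 0.45) did not pass (limma adjusted p = 0.150) and was -0.17 with slide as a block. With each array scaled by its median it was 0.33 and passed (limma adjusted p = 0.0451).

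Micall2, a partner of Rab13 in the delivery of junction proteins to the cell surface, had levels of -1.48, -1.12 and -1.42 in 12-week knockouts and -1.24, -1.35 and -1.39 in 12-week wild type. The 12-week groups overlapped, with a difference of -0.01 ± 0.11 (95% interval -0.26 to 0.23; limma adjusted p = 0.938). At 6 weeks it gave -1.42, -1.32 and -1.08 in knockout and -1.44, -1.49 and -1.49 in wild type. Every 6-week knockout value was above every 6-week wild-type value, though the nearest were close.

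**Figure D2:**
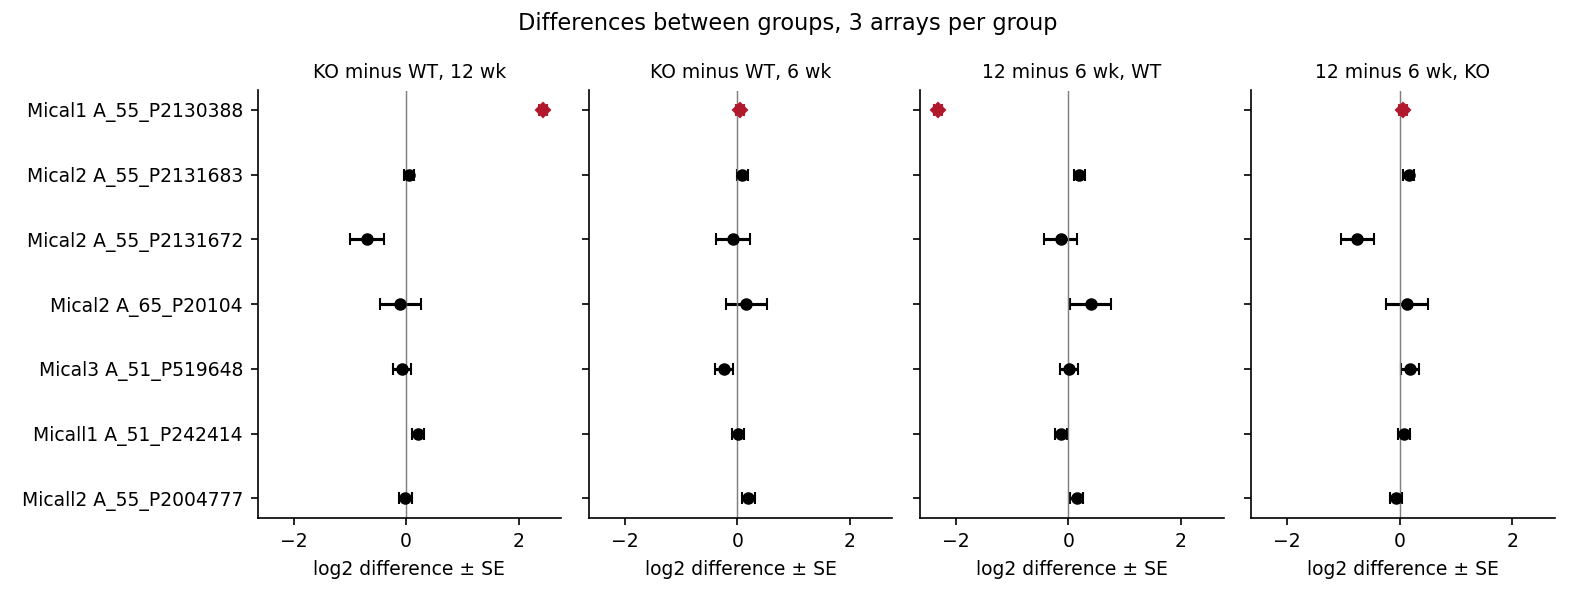
Log2 difference ± SE (horizontal axis, 3 arrays per group) of each family probe in 4 comparisons. The Mical1 diamonds lie at 2.44 for knockout minus wild type at 12 weeks and at -2.32 for 12 minus 6 weeks in wild type, and near 0 in the other panels. The paralogue points lie between -0.75 and 0.40 throughout.

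In the other comparisons no paralogue probe was called either. For knockout against wild type at 6 weeks, limma called 0 of 6 probes and 0 had an unadjusted p under 0.05, where 0.632% of all probes were called. The Micall2 difference of 0.20 ± 0.11 (limma adjusted p = 0.371) was the 1 without overlap, where 22.7% of all probes had none.

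With age in wild type, where Mical1 was lower at 12 weeks, limma called 0 of the 6 paralogue probes and 0 had an unadjusted p under 0.05, against 0.462% of all probes called. Their differences ran from -0.13 for the Mical2 probe A_55_P2131672 to 0.40 for the dim Mical2 probe A_65_P20104, with a median of 0.08 beside 0.0048 for all probes. The 1 probe without overlap was that of Micall2, at 0.15 ± 0.11, and 24.1% of all probes had none.

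With age in knockout, limma called 0 of 6, against 1.13% of all probes, and 1 had an unadjusted p under 0.05. That was the Mical2 probe A_55_P2131672, at -0.75 ± 0.29 (95% interval -1.41 to -0.10; limma adjusted p = 0.150). The groups overlapped for all 6, where 25.5% of all probes did not. The share over all probes rests on single arrays: its 422 calls became 9656 without 6-week knockout replicate 3, the array of that group on slide 2, and 1 without replicate 2. For the genotype difference at 12 weeks minus that at 6 weeks, limma called 0 of 6 and 0 had an unadjusted p under 0.05, with 0.105% of all probes called. Those 39 calls became 5895 without 6-week knockout replicate 3. Without that array limma still called 0 of the 6 paralogue probes in either comparison. The paralogue values of this contrast ran from -0.62 to 0.20, beside the 2.39 of Mical1.

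A further 3 probes lie outside the rule because the files name them by a transcript or by a relative. The probe A_55_P2131677, described in the files as Mical2, read -2.49, -2.60 and -2.49 in 12-week knockouts and -2.86, -2.78 and -3.05 in 12-week wild type. It was higher in knockout by 0.37 ± 0.08 (limma adjusted p = 0.0114), and the groups did not overlap. The call was lost with slide as a fixed block, at 0.28 (adjusted p = 0.686), and with slide as a random block, at 0.33 (adjusted p = 0.163). At 6 weeks the same probe differed by 0.22 ± 0.08 (limma adjusted p = 0.208). The 4 probes that the files tie to Mical2 therefore gave 1 call among them at 12 weeks, where 31.5% of all probes were called.

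A_55_P2035872, described as Mical3, read 1.17, 1.04 and 1.10 in 12-week knockouts and 1.08, 1.03 and 0.87 in 12-week wild type. It was far brighter than A_51_P519648, the probe named Mical3, which averaged -3.32 in 12-week knockouts and -3.24 in 12-week wild type. The groups overlapped, and the difference was 0.11 ± 0.07 (limma adjusted p = 0.275). It passed, at 0.22, with each array scaled by its median (limma adjusted p = 0.0385). The probe of Micalcl, a small relative that carries the Rab-binding region, differed by -0.44 ± 0.44 (limma adjusted p = 0.468).

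The genes whose pattern over the 12 arrays was closest to that of Mical1 were found by the root mean square difference of the centred log2 levels, over 26450 genes. For scale, Mical1's own values had a root mean square of 1.03 around their mean, and the median gene differed from it by 1.04. The 5 closest named genes were Nnt at 0.522, Padi6 at 0.654, Dgcr6 at 0.703, Bfsp2 at 0.725 and Ppef2. Ppef2 came out first, at 0.430, but with 12-week wild-type values that were not well above background on any array, so neither its distance nor its place can be read as exact. This ranking is a description, made on the same arrays that picked Mical1.

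Ppef2, a phosphatase known from photoreceptors, was dim. It read -5.42, -5.0 and -5.28 in 12-week knockouts and -7.93, -7.03 and -8.35 in 12-week wild type, where it was well above background on 0 of 3 arrays. At 6 weeks it gave -5.33, -4.57 and -5.31 in knockout and -5.20, -5.38 and -6.08 in wild type. The 12-week wild-type arrays were again the lowest, and their values are bounds only.

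Nnt, the mitochondrial transhydrogenase that makes NADPH, was bright. Its levels were 2.47, 2.45 and 2.43 in 12-week knockouts, 1.06, 1.19 and 1.06 in 12-week wild type, 2.38, 2.30 and 2.51 in 6-week knockouts, and 2.09, 2.07 and 2.07 in 6-week wild type. All its 12-week wild-type values lay below all others, and unlike Mical1 it was also higher in every 6-week knockout than in every 6-week wild type.

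Padi6, a peptidylarginine deiminase of the oocyte, averaged -3.45 ± 0.26 in 12-week knockouts, -4.21 ± 0.20 in 12-week wild type, -3.17 ± 0.22 in 6-week knockouts and -3.20 ± 0.09 in 6-week wild type (SD, n = 3 each). Dgcr6, a gene of the DiGeorge region, averaged 3.34 ± 0.06 in 12-week knockouts, 2.25 ± 0.28 in 12-week wild type, 3.03 ± 0.34 in 6-week knockouts and 2.88 ± 0.07 in 6-week wild type. Bfsp2, a lens filament protein, averaged 1.39 ± 0.04 in 12-week knockouts, 0.35 ± 0.12 in 12-week wild type, 1.05 ± 0.13 in 6-week knockouts and 0.87 ± 0.23 in 6-week wild type. In each of the 5 genes the mean was lowest in 12-week wild type. Of 37147 tested probes with complete values, 1266 (3.41%) were lower on all 12-week wild-type arrays than on all 9 others.

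**Figure D3:**
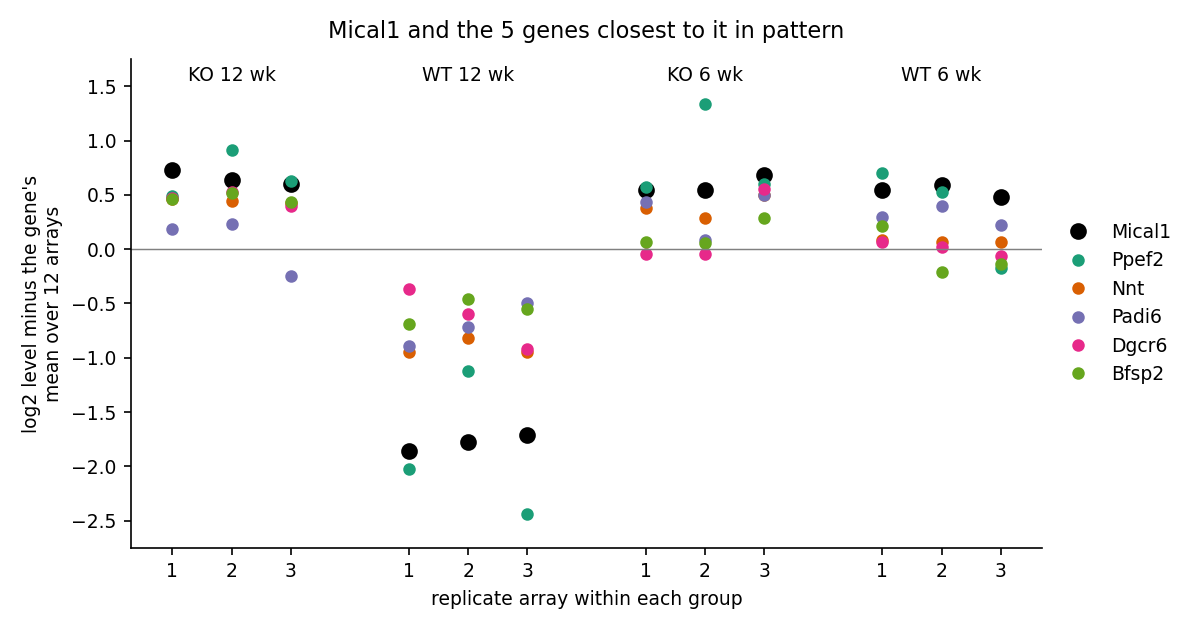
Log2 level minus the gene's mean over 12 arrays (vertical axis) on each array, by group and replicate number, for Mical1 (black) and the 5 genes closest to it in pattern. All 6 lie below their own mean on the 12-week wild-type arrays, where the values of Ppef2 are not above background and serve as bounds only.

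Genes near Mical1 on chromosome 10 were then examined. Within 1 Mb of its probe, 17 genes were tested, and at 12 weeks 1 was called higher and 1 lower in knockout, with 6 at an unadjusted p under 0.05 in limma. Over all probes 16.2% were called higher and 15.3% lower. The median difference of the 17 was -0.07. In the other 4 comparisons limma called 0 of 17. The shares of all probes called were 0.632% for genotype at 6 weeks and 0.462% for age in wild type. They were 1.13% for age in knockout and 0.105% for the difference between the genotype effects. At an unadjusted p under 0.05, a looser threshold, there were 4, 2, 4 and 4 neighbours in that order. The share of all probes at that looser threshold is not given here, so these counts have no background.

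The nearest gene, Smpd2, a neutral sphingomyelinase, has its probe 1.48 kb from that of Mical1. It read -0.62, -1.14 and -0.66 in 12-week knockouts and -1.57, -1.60 and -1.43 in 12-week wild type, with no overlap. It was higher in knockout by 0.73 ± 0.17 (limma adjusted p = 0.0137). The call was lost with slide as a fixed block, at 0.40 (adjusted p = 0.774), and as a random block, at 0.59 (adjusted p = 0.199).

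Smpd2 differed from Mical1 in its 6-week values, which were -1.36, -1.44 and -1.08 in knockout and -1.14, -1.49 and -1.70 in wild type. Most lay near the 12-week wild type. The -1.08 of knockout replicate 3, on slide 2, and the -1.14 of wild-type replicate 1 lay near the lowest 12-week knockout, at -1.14. The gene called lower was 9930024M15Rik, at -1.12 ± 0.23 (limma adjusted p = 0.00950), and it is named because it is the only such call. Of the other nearest genes, Zbtb24, on the side away from Smpd2, differed by 0.14 ± 0.08 and Ppil6 by -0.16 ± 0.11, with limma adjusted p-values of 0.228 and 0.266. Cd164 gave -0.06, Cep57l1 -0.33 and Fig4 0.25, and none of these 3 was called.

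**Figure D4:**
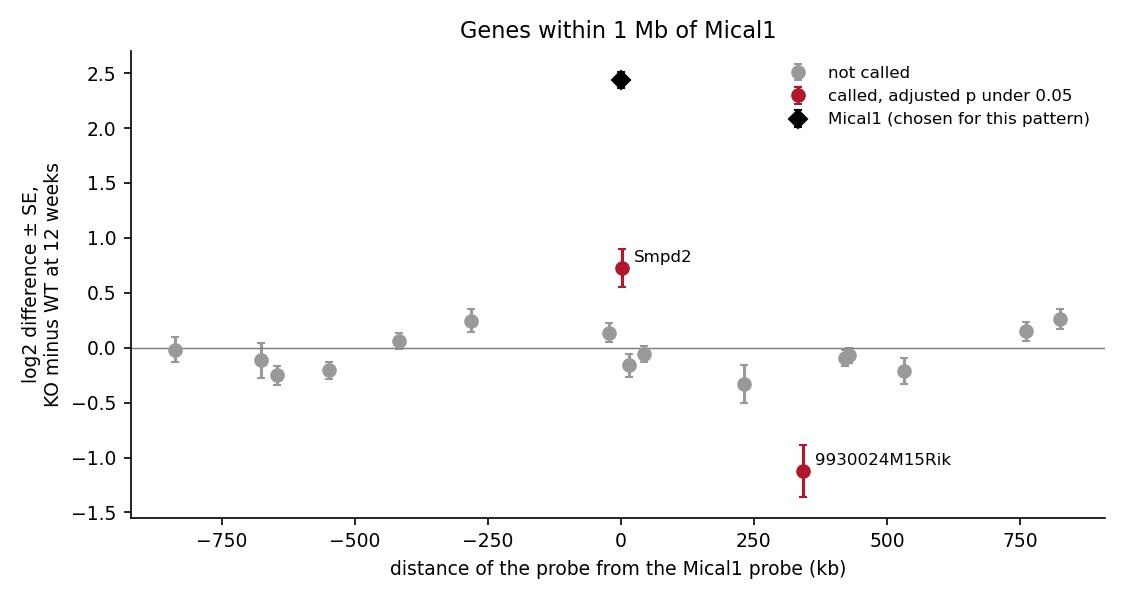
Knockout minus wild-type log2 difference ± SE at 12 weeks (vertical axis, 3 arrays per group) of genes within 1 Mb of Mical1, by the distance of their probe from the Mical1 probe in kb. Mical1 (black) is at 2.44, Smpd2 at 0.73 and 9930024M15Rik at -1.12, and the other genes lie between -0.33 and 0.26.

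Genes that work with the family were taken from lists of 63 genes, of which 62 were tested, each by its brightest probe. At 12 weeks 16 were called higher and 4 lower in knockout by limma. Both directions together were 32.3%, close to the 31.5% of all probes. By direction the list leaned to higher calls, where all probes gave 16.2% higher and 15.3% lower. With 1 probe per gene name the list had 17 higher and 4 lower, beside 4887 higher and 3861 lower among all 26499 gene names. At an unadjusted p under 0.05 there were 28 of the list genes, and the share of all probes at that threshold is not given here. Their median difference was 0.15, where that of all probes was -0.0030. With slide as a fixed block 0 were called, with 5 at an unadjusted p under 0.05 and a lowest limma adjusted p of 0.472. With slide as a random block 0 were called, with 14 at an unadjusted p under 0.05 and a lowest adjusted p of 0.0803. With each array scaled by its median, 27 were called higher and 0 lower, and with normexp background correction 13 higher and 7 lower. Leaving out 1 array gave between 10 and 26 calls.

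Markers of several cell types differed beside these genes. The summed level was higher on all 12-week knockout than on all 12-week wild-type arrays for 7 of 10 lists: neuron, astrocyte, oligodendrocyte, microglia, endothelial, neutrophil and erythroid. Taken singly, 51.9% of all probes had no overlap between these groups, in either direction. Limma called 19 of the 37 tested markers higher (51.4%) and 1 lower at 12 weeks, where 16.2% of all probes were called higher. With slide as a block, 0 of 37 were called and 7 had an unadjusted p under 0.05. In units of the 75th percentile, the neuron markers summed to 252 to 282 in 12-week knockouts and 212 to 230.5 in 12-week wild type, and the endothelial markers to 16.9 to 19.4 in 12-week knockouts and 13.0 to 14.8 in 12-week wild type. The astrocyte markers summed to 48.4 to 51.8 in 12-week knockouts and 40.6 to 45.1 in 12-week wild type. These sums did not overlap between the genotypes. The erythroid markers summed to 85.0 to 140.1 in 12-week knockouts and 58.2 to 81.8 in 12-week wild type. The neutrophil markers were the dimmest of these, at 1.39 to 3.43 in 12-week knockouts and 0.69 to 0.85 in 12-week wild type, with 0.60 to 3.51 in 6-week knockouts. Their part in the results below was not tested.

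In 12-week knockouts limma called 16.2% of all probes higher and 15.3% lower. Upstream of the Micals, among 13 class 3 semaphorins, neuropilins and plexin-A receptors, 2 were called higher and 1 lower there, with a list median of 0.13. All 3 were ligands: Sema3g at 0.53 ± 0.10 and Sema3f at 0.34 ± 0.09 were higher (limma adjusted p = 0.00721 for Sema3g and 0.0162 for Sema3f). Sema3a, a repellent of growing axons, was lower at -0.23 ± 0.07 (limma adjusted p = 0.0269). Sema3g read 0.06, 0.06 and 0.09 in 12-week knockouts and -0.44, -0.38 and -0.54 in 12-week wild type, with no overlap. No neuropilin or plexin-A receptor was called.

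Of the 8 Rab GTPases bound by Micals and Mical-like proteins, 3 were called higher and 2 lower at 12 weeks, with a median of 0.11. The shares over all probes were 16.2% higher and 15.3% lower. Rab15, found on neuronal endosomes, was higher by 0.60 ± 0.10 (limma adjusted p = 0.00584), reading 6.38, 6.29 and 6.27 in 12-week knockouts and 5.57, 5.76 and 5.79 in 12-week wild type. With slide as a block the Rab15 difference was 0.30 (limma adjusted p = 0.636). Its 6-week knockouts read 6.02 and 5.92 on slide 1 and 6.27 on slide 2. Rab1b, of transport from the endoplasmic reticulum to the Golgi, was higher by 0.48 ± 0.08 (limma adjusted p = 0.00591). Its close relative Rab1 was lower, at -0.26 ± 0.07 (limma adjusted p = 0.0192), and so was Rab8b, at -0.25 ± 0.07 (limma adjusted p = 0.0268). The fifth call was Rab13, known as a partner of Micall2, at 0.29 (limma adjusted p = 0.0381), which the naming rule leaves out and which is given to complete the 5.

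Downstream, among 6 methionine sulfoxide reductases and genes of the Mrtf-Srf axis, 3 were called higher and 1 lower at 12 weeks, with a median of 0.25. All probes together gave 16.2% higher and 15.3% lower. Mkl1, the actin-sensing coactivator of Srf also called Mrtfa, read 3.09, 3.03 and 2.99 in 12-week knockouts and 2.32, 2.33 and 2.35 in 12-week wild type, a difference of 0.70 ± 0.09 (limma adjusted p = 0.00407). With slide as a block the Mkl1 difference was 0.40 (limma adjusted p = 0.472). Its 6-week knockouts read 2.62 and 2.45 on slide 1 and 2.83 on slide 2. Sepx1, now called Msrb1, the reductase that undoes Mical oxidation of actin in mouse cells, read 4.08, 4.12 and 4.01 in 12-week knockouts and 3.37, 3.58 and 3.53 in 12-week wild type. It was higher by 0.58 ± 0.10 (limma adjusted p = 0.00703).

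Msrb3, the reductase of the endoplasmic reticulum, was the 1 called lower, at -0.61 ± 0.17 (limma adjusted p = 0.0257), and Mkl2 was higher by 0.28 ± 0.09 (limma adjusted p = 0.0426). Msrb3 read -2.95, -2.85 and -3.61 in 6-week knockouts, with the value of replicate 3, on slide 2, near the 12-week knockouts at -3.33, -3.41 and -3.50. Sepx1 showed the same grouping by slide in 6-week knockouts, at 3.80 and 3.79 on slide 1 and 4.16 on slide 2. With slide as a block the Msrb3 difference was 0.11 (limma adjusted p = 0.891).

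Other binding partners had 4 of 12 called higher at 12 weeks, where 16.2% of all probes were, with a median of 0.18. Ehd3 (0.40 ± 0.08) and Ehd1 (0.31 ± 0.08) shape recycling endosomes, Actn4 (0.34 ± 0.08) is an actin crosslinker bound by Micall2, and Arf6 (0.38 ± 0.10) is a GTPase of the same recycling route. Their limma adjusted p-values ran from 0.00998 to 0.0196. With slide as a block the differences were 0.13 for Ehd3, 0.14 for Ehd1, 0.16 for Actn4 and 0.01 for Arf6, and none was called. Arf6 read 1.05 and 1.07 in 6-week knockouts on slide 1 and 1.42 on slide 2. Among the 3 relatives with the bMERB Rab-binding domain, limma called 0, against 31.5% of all probes, and 2 had an unadjusted p under 0.05.

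Of 18 other genes of actin disassembly, 3 were called higher at 12 weeks, close to the 16.2% of all probes, with a median of 0.15. Cfl1, the filament-severing protein cofilin, read 6.92, 6.85 and 6.78 in 12-week knockouts and 6.06, 6.35 and 6.28 in 12-week wild type, a difference of 0.62 ± 0.15 (limma adjusted p = 0.0156). Its 6-week knockout values were 6.34 and 6.42 on slide 1 and 7.0 on slide 2. Twf2 (0.29 ± 0.07) and Cap1 (0.26 ± 0.07), which bind actin monomers, were the other 2.

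Of the 2 cytoplasmic actins, the substrates of the Micals, Actg1 was called higher at 12 weeks, at 0.32 ± 0.10 (limma adjusted p = 0.0319), and Actb was not called. The sign of the Actg1 difference turned to -0.030 with slide as a block and to -0.10 with quantile normalization, and neither passed.

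**Figure D5:**
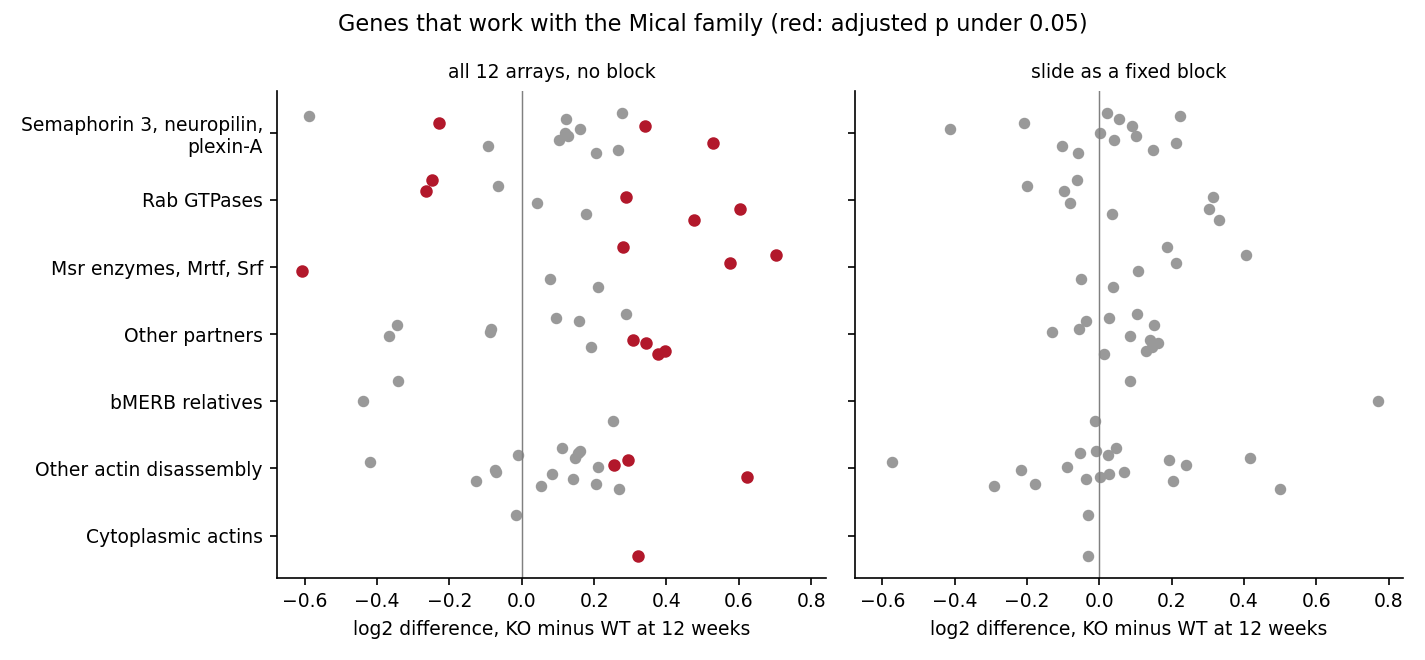
Knockout minus wild-type log2 difference at 12 weeks (horizontal axis) of 62 genes that work with the Mical family, by list, without a slide block (left) and with slide as a fixed block (right). Red points have an adjusted p under 0.05: there are 20 on the left and 0 on the right.

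Away from 12-week genotype, 1 of these 62 genes was called. Gsn, gelsolin, which severs and caps filaments, was lower at 12 weeks in wild type by limma, at -0.60 ± 0.10 (adjusted p = 0.0425), where 0.151% of all probes were called lower. It read 3.36, 3.47 and 3.30 in 12-week wild type and 3.78, 4.05 and 4.09 in 6-week wild type, with no overlap. The call depended on the setting. On slide 1 alone the difference was -0.60 (adjusted p = 0.0750), and blocking on the slide column gave -0.61 (0.169). The call was lost as well with the replicate block (0.0927), median scaling (0.0772), no filter (0.111) and only the 2 groups compared (0.121). It was also lost without any 1 of the 12-week wild-type arrays, or without 6-week wild-type replicate 2 or 3, at differences of -0.64 to -0.54. The oligodendrocyte markers moved beside it, with 3 of 3 at an unadjusted p under 0.05, 0 of 3 called and a median of -0.41, and their part was not tested. In 12-week knockouts Gsn read 3.29, 3.44 and 3.18, near the 12-week wild type, unlike Mical1. Its 6-week knockouts read 3.69, 3.61 and 3.80, above all of these. With age in knockout Gsn was thus lower too, at -0.40 ± 0.10, but not called (limma adjusted p = 0.0707). The oligodendrocyte markers had a median of 0.10 in that comparison, with 0 of 3 at an unadjusted p under 0.05.

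For genotype at 6 weeks limma called 0 of the 62 genes, where 0.632% of all probes were called, with 20 at an unadjusted p under 0.05. For age in knockout it called 0, where 1.13% of all probes were called, with 13. For the difference between the genotype effects it called 0, where 0.105% of all probes were called, with 10. The share of all probes at this unadjusted threshold is not given here, so the 20, 13 and 10 have no background.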

How the data were processed

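Whole-brain RNA of 12 mice was measured on 12 Agilent 1-colour Cy3 arrays, and the submitters' processing notes name Agilent Feature Extraction 10.7.3.1. Per the file headers, the deposited signals are spot intensity, in arbitrary units, and other deposited columns are marks of 0 or 1 for spots above background, saturated or outlying. The deposited value table is also intensity and differed from the processed signal by at most 0.498%.

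Outlier spots (107 to 220 per array, 0 in family probes) were left out, and no spot was saturated. The processed signal was taken as log2 minus the log2 75th percentile of the array's 59305 non-control spots. Probes stayed in if at least 1 group had them well above background on its 3 arrays, which left 37202 probes of 26499 gene names. The 75th percentiles were 887 to 1183 intensity units. The number of arrays limits the precision.

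Tests used limma 3.58.1 under R 4.3.3 (lmFit and eBayes, 1 mean per group, 8 residual degrees of freedom, two-sided), with Benjamini-Hochberg adjustment over all kept probes within each of 5 comparisons. Calls are adjusted p-values under 0.05. The printed shares of all probes are of calls or of groups without overlap, so counts at an unadjusted p under 0.05 have no such share. Errors are SE from limma unless named SD. The script was tested on simulated data. Replicates within a group correlated at 0.990 to 0.996, and p-values measure the spread between these samples.

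Named are all family probes, the 5 genes closest to Mical1 (leaving out clone, RIKEN, Gm, LOC and accession names), up to 6 neighbours within 1 Mb, and up to 4 called members of each list, by p. List genes are represented by the probe with the highest mean. The members, lists and tests were chosen with earlier results of these data known. One cell type marker is not reported here. Slides and slide columns come from the file headers. The alternatives were slide as a fixed or random block, slide column or replicate number as a block, slide 1 alone, normexp with an offset of 50, quantile normalization, median scaling, the deposited table, no filter, a filter on all 12 arrays, 1 probe per gene, only the groups compared, and each array left out. Slide as a block for the cell type markers was added after the data were seen.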

Additional observations from a re-analysis of the deposited data

How the results depend on the processing

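The Mical1 difference between knockout and wild type at 12 weeks, 2.44, was 2.30 with slide as a fixed block, 2.10 with normexp and 2.55 with median scaling, and moved by less than the replicate SD under the other settings run. The count of paralogue probes called was 0 under each alternative run for a comparison (slide 1 alone was run for genotype at 6 weeks and age in wild type), except at 12 weeks. There it was 1 with median scaling (Micall1, 0.33, limma adjusted p = 0.0451), and from 0 to 1 when each array was left out, with 1 without 12-week knockout replicate 1 (the Mical2 probe A_55_P2131672). Over all probes, leaving out 1 array gave 78 to 220 calls for genotype at 6 weeks, 6425 to 14143 at 12 weeks, 28 to 369 with age in wild type, 1 to 9656 with age in knockout and 7 to 5895 for the difference of genotype effects. The lowest came without 6-week wild-type replicate 2 for genotype at 6 weeks, 6-week knockout replicate 2 for age in knockout, and 12-week wild-type replicate 2 for the others. The highest came without 6-week knockout replicate 2 for genotype at 6 weeks and replicate 3 for the others. Median scaling moved the median of all probes to 0.12 at 6 weeks and 0.11 at 12 weeks. Replicate numbers did not pair the arrays: for 2 of 12, the best match outside the array's own group had the same number. Same-numbered arrays correlated at -0.204 to 0.110 in this check. These values are not the same measure as the correlations of replicates within a group and are not to be read beside them. With the replicate block, 0 paralogue probes were called in each comparison.

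Among called genes, Actg1 at 12 weeks turned to -0.030 with slide as a fixed block and -0.10 with quantile normalization, and Msrb3 to 0.11 with slide as a fixed block. The 20 calls among 62 pathway genes at 12 weeks became 12 with slide column as a block (11 of them shared with the 20) and 0 with slide as a fixed or random block. Leaving out 1 array gave 10 to 26 calls, with 10 without 12-week wild-type replicate 2, 11 without 12-week knockout replicate 1, 11 without either replicate 3 at 12 weeks, and 12 without 12-week wild-type replicate 1. The causes were not tested. Signs of values that were not called were not followed. Probes near background, such as Mical2 A_65_P20104, limit what can be seen at this signal.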
